A study of Equus caballus with 6 samples.

Results

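The genes described here encode the proteins that carry metabolites and precursor proteins across the membranes of the mitochondrion. They were taken by symbol from a table of 12270 gene rows: 34 carriers of the solute carrier family 25 (SLC25), 11 translocases of the inner membrane (TIMM), 9 of the outer membrane (TOMM), the 3 voltage-dependent anion channels VDAC1, VDAC2 and VDAC3, and the pyruvate carrier subunits MPC1 and MPC2, 59 genes in all. The rule used symbols and no measured value, but it was set with earlier results of these data known. The levels come from horse (Equus caballus) blastocysts recovered in vivo on day 8 from superovulated mares, as 3 libraries of inner cell mass (ICM 15, 22 and 25), the cells that give rise to the embryo and its endoderm, and 3 of trophectoderm (TE 16, 23 and 24), the outer epithelium that forms the placenta. All blastocysts had been exposed to Pronase, a protease mix. The TE was taken off mechanically and the ICM was cleaned by immunosurgery, which lyses the outer cells with antibody and complement, so tissue and isolation method cannot be told apart. No allele, treatment arm or mare is named in the labels, no number ties an ICM to a TE, and a p-value here measures only the spread between libraries, which come from individual blastocysts.

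As background, the outer mitochondrial membrane is crossed by small solutes through the VDAC channels, and by precursor proteins through the TOM complex. The inner membrane is tight. SLC25 carriers exchange nucleotides, phosphate, organic acids, amino acids, cofactors and metals across it, MPC1 and MPC2 form the pyruvate carrier, small TIMM chaperones escort hydrophobic precursors between the membranes, and the TIM23 and TIM22 complexes insert or pull precursors in. The early mammalian embryo runs on mitochondria inherited from the oocyte, and the trophectoderm of the mouse blastocyst is known as its more energy-demanding tissue, since it pumps fluid into the cavity.

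Each library held 6526212 to 10686659 reads in the genes of the table. Levels are RPKM, reads per kilobase of gene after scaling for depth, so levels of different genes can be set side by side. The tissue labels were checked on marker genes. The summed level of 5 epiblast markers was 47.7 to 128 RPKM in ICM and 35.6 to 55.9 RPKM in TE, with 0 reads of SOX2 in all TE libraries. That of 6 TE markers was 35.3 to 54.2 RPKM in ICM and 123 to 159 RPKM in TE, and that of 3 hypoblast markers was 14.7 to 60.4 RPKM in ICM and 14.0 to 21.7 RPKM in TE. ICM 25 stood apart from the other ICM libraries. It had 1.75 RPKM of the pluripotency factor NANOG, where ICM 15 and 22 had 14.1 and 12.4. The epiblast markers POU5F1 and SOX2 were also lower in ICM 25 than in ICM 15 and 22. KLF4 had 6.80, 8.88 and 8.09 RPKM in ICM 15, 22 and 25, and GDF3 had 3.98, 1.32 and 1.44 RPKM. Neither KLF4 nor GDF3 was thus lowest in ICM 25. That library is given with and without in what follows. The part of other cell types, or of the quality of ICM 25, in any difference was not tested. The 3 markers of blood and maternal cells looked for had 0 rows under their symbols, so those cells were not assessed.

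Of the 59 genes, 54 reached 1 RPKM in at least 3 libraries and were tested, among 9436 such genes, on log2(RPKM + 1) as ICM minus TE. None was called at an adjusted p of 0.05 (limma with Benjamini-Hochberg adjustment over all 9436 genes), where the share of all genes called was 0.933% with ICM higher and 0.933% with TE higher. At an unadjusted p under 0.05 there were 5, VDAC1, VDAC2, SLC25A12, SLC25A1 and SLC25A40, all with lower means in ICM, against 16.9% of all genes. With voom on the whole reads given back by the RPKM, 0 of the 54 were called as well, against 0.668% of all genes with ICM higher and 0.657% with TE higher, and 5 had an unadjusted p under 0.05, against 16.4%. Library values of the tissues did not overlap for 6 of the 54 with ICM below TE and for 0 with ICM above TE, against 17.8% and 6.81% of all genes, so the counts among the 54 genes were below these shares. In a bulk sample, fewer cells of a type and less RNA per cell cannot be told apart.

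The median log2 difference of the 54 genes was -0.23, with 44 of them (81.5%) below 0, and that of all genes was -0.15, with 64.7% below 0. Both medians depended on ICM 25. Without that library the medians were 0.03 and -0.01, and 26 of the 54 (48.1%) were below 0, where 50.8% of all genes were. With all libraries rescaled by the median of ratios, the medians were -0.09 and 0.01 and 29 of the 54 were below 0. In the fit without ICM 25, 3 of the 54 were called. SLC25A36 was higher in ICM, where 5.89% of all genes were called, and VDAC1 and SLC25A12 were lower in ICM, where 5.62% of all genes were called. In the authors' deposited table, where 10.7% of the rows have an adjusted DESeq p under 0.05 with ICM higher and 5.96% with TE higher, the same 3 of the 59 genes do, in the same directions.

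**Figure D1:**
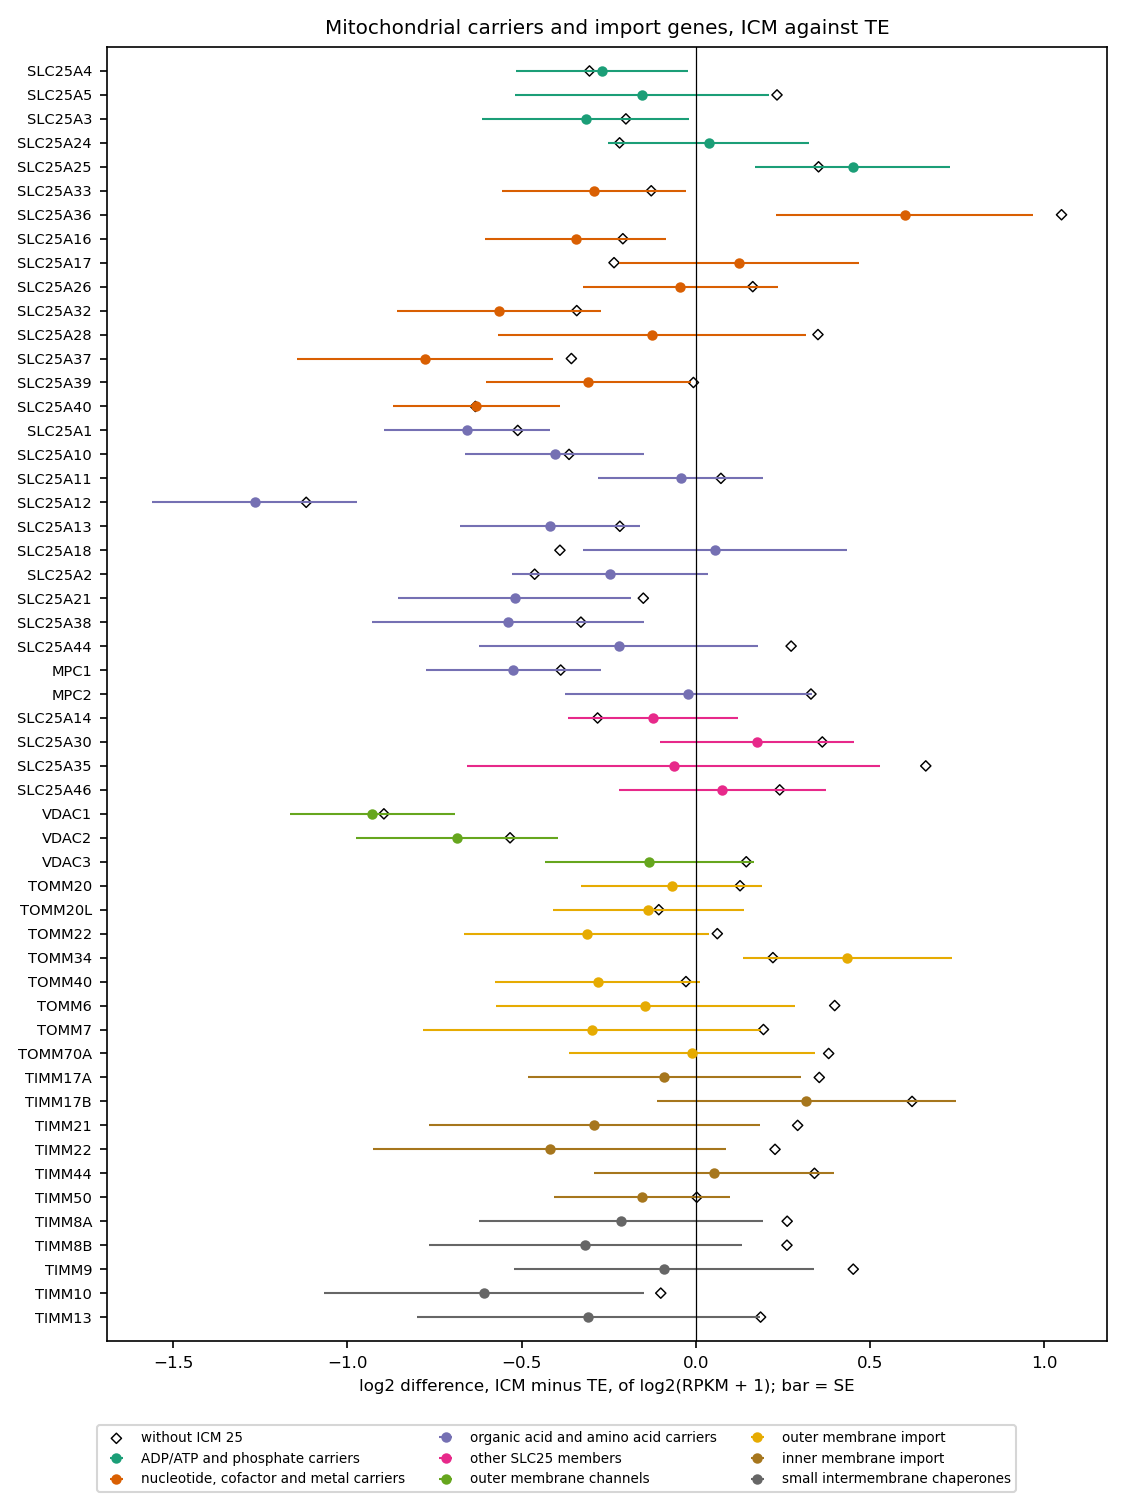
Log2 difference, ICM minus TE, of log2(RPKM + 1) for the genes tested except 1 that is not reported, in rows grouped by role (colours). Filled points with bars are the value from all 6 libraries with its SE, and open diamonds are the value without ICM 25. SLC25A12 (-1.27) and VDAC1 (-0.93) lie farthest left and their diamonds stay beside the points, while the diamonds of most TOMM and TIMM genes lie to the right of the points.

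By level, 5 of the 59 genes averaged at least 100 RPKM over the 6 libraries and 25 at least 10 RPKM, and 10 ranked among the 1000 most abundant rows. The 8 most abundant were VDAC2, SLC25A3, VDAC1, SLC25A5, TOMM20, TOMM22, TOMM6 and MPC1, and together they made up 63.4% to 69.8% of the summed RPKM of the 59 genes in ICM and 68.9% to 72.8% in TE. The sum over the 59 genes was 1531, 1669 and 953 RPKM in ICM 15, 22 and 25, and 1540.5, 1729.8 and 1879 RPKM in TE 16, 23 and 24. ICM 25 was the lowest and the other ICM libraries lay within or just below the range of TE. As a share of the summed RPKM of the table, the 59 genes took 0.65%, 0.60% and 0.46% in these ICM libraries and 0.61%, 0.71% and 0.64% in TE. The mitochondrial genome itself supplied 10.1%, 8.60% and 12.9% of the reads in ICM and 13.9%, 12.3% and 13.5% in TE, so ICM 25, lowest in the nuclear genes described here, was the highest of the ICM libraries in that share.

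The outer membrane channels had the lowest median log2 difference of the roles, -0.68 with 3 of 3 below 0, and -0.49 with 2 of 3 below 0 after median of ratios rescaling. VDAC1, the most studied of these channels and a docking site for hexokinase, had 85.5, 116 and 92.8 RPKM in ICM 15, 22 and 25, against 169, 211 and 180.5 RPKM in TE 16, 23 and 24. The tissues did not overlap, and ICM 25 lay between the other ICM libraries. VDAC1 averaged 98.0 ± 15.8 RPKM in ICM and 187 ± 21.4 RPKM in TE (SD, n = 3 each), a ratio of 0.53, with a log2 difference of -0.93 (SE 0.24, limma adjusted p = 0.092). It passed without ICM 25 (-0.89, SE 0.20, adjusted p = 0.030) and did not pass with any other library left out (adjusted p = 0.094 to 0.437).

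VDAC2, the isoform that binds the apoptosis protein BAK, was the most abundant of the 59 genes and ranked 105 in the table. It had 317, 198 and 183 RPKM in ICM 15, 22 and 25, against 315, 445 and 342 RPKM in TE 16, 23 and 24. ICM 15 lay just above the lowest TE library, so the tissues overlapped, and the log2 difference was -0.68 (SE 0.29, limma adjusted p = 0.28). VDAC3 had 27.7, 32.5 and 16.4 RPKM in ICM, against 24.7, 24.2 and 33.1 RPKM in TE, with a log2 difference of -0.13 (SE 0.30) that changed sign in 5 of 13 alternatives. Within the trio, VDAC2 made up 64.5% ± 8.4 of the RPKM in ICM and 63.0% ± 2.1 in TE, and VDAC1 made up 28.4% ± 7.4 in ICM and 32.2% ± 1.1 in TE (SD, n = 3 each, exact permutation test, two-sided, p = 0.7). The share of VDAC1 overlapped between tissues, and ICM 15 was the low library, at 19.8%. VDAC genes are known to have near-identical processed copies in the human genome, and the authors' counting of shared reads is not given in the sources used here, so the split between isoforms is uncertain. By the coordinates of the deposited table, which names no genome build, VDAC1 lies on chromosome 14 (41721444 to 41735701) and VDAC2 on chromosome 1 (62690834 to 62705506), where the row of COMTD1 spans all of VDAC2. COMTD1 stood at 1.47 to 4.53 RPKM in ICM and 1.61 to 2.45 RPKM in TE.

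**Figure D2:**
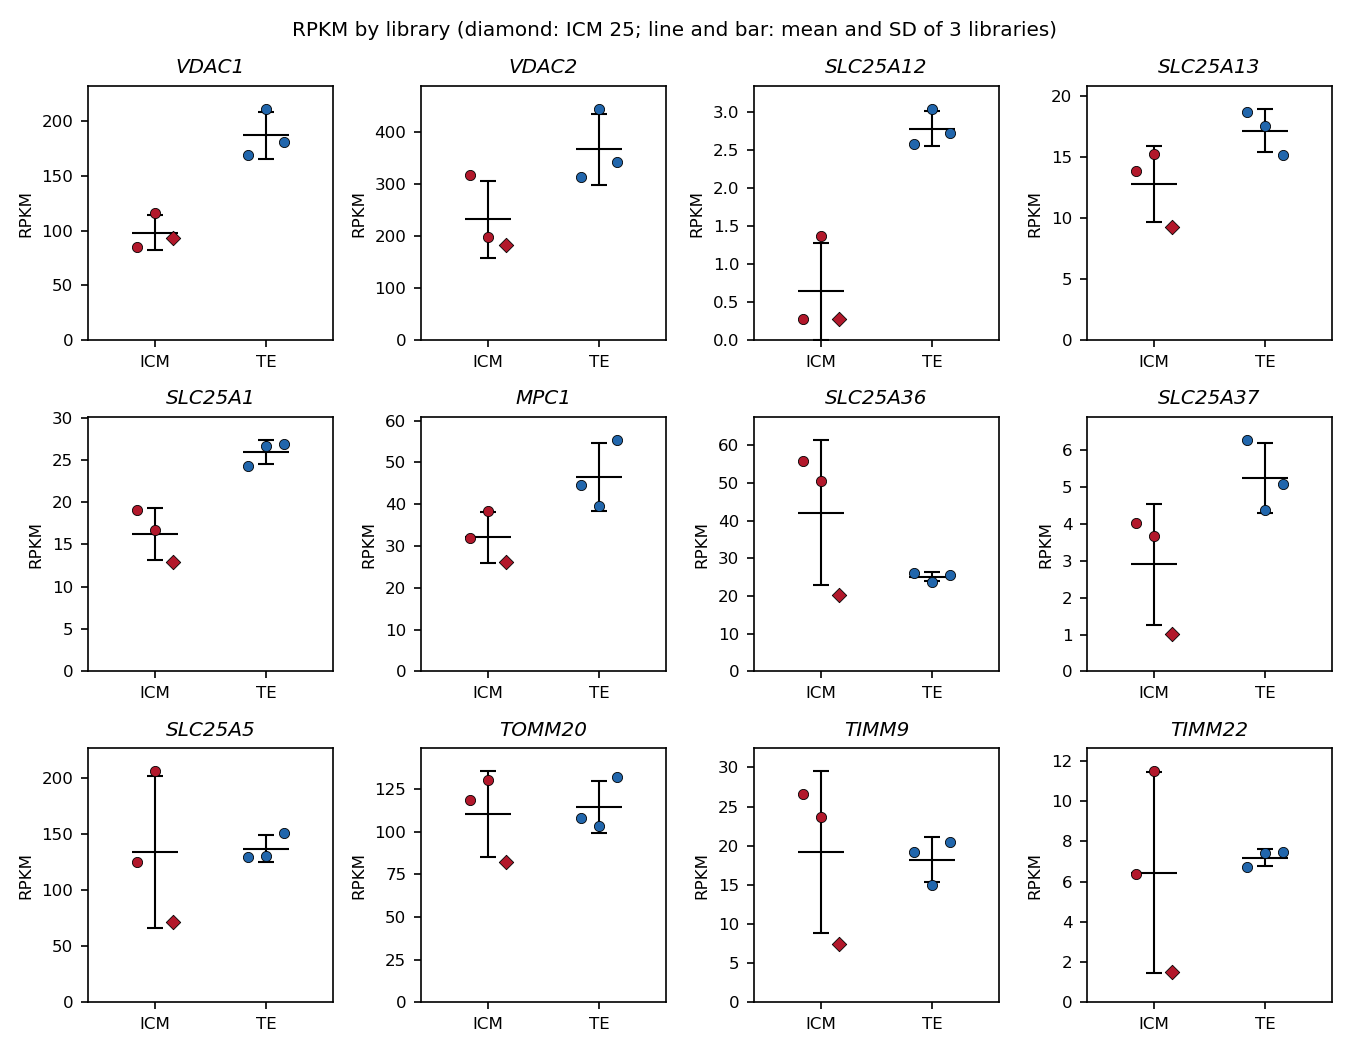
RPKM (vertical axes, from 0) of 12 genes in the 3 ICM libraries (red, left) and 3 TE libraries (blue, right). The line and bar are the mean and SD of 3 libraries, and the diamond is ICM 25. VDAC1, SLC25A12, SLC25A1, MPC1 and SLC25A37 show no overlap between tissues. ICM 25 is the lowest library for every gene shown except VDAC1 and SLC25A12, where ICM 15 is the lowest.

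Of the 12 carriers of organic acids and amino acids tested, 11 had a log2 difference below 0, where 64.7% of all genes did, with a median of -0.41. After median of ratios rescaling 9 of 12 were below 0 with a median of -0.25, and without ICM 25 it was 9 of 12 with a median of -0.35. SLC25A12, an aspartate-glutamate carrier that serves the malate-aspartate shuttle of reducing power and is known for high levels in brain and muscle, had 0.28, 1.38 and 0.28 RPKM in ICM 15, 22 and 25, from 20, 121 and 20 reads. TE 16, 23 and 24 had 2.58, 3.04 and 2.73 RPKM, from 199, 172 and 204 reads. All ICM values lay below all TE values, and ICM 22 was well above the other ICM libraries. The mean was 0.645 ± 0.633 RPKM in ICM and 2.78 ± 0.23 RPKM in TE (SD, n = 3 each), a ratio of 0.23, the lowest of the 54 genes tested. Its log2 difference of -1.27 (SE 0.29, limma adjusted p = 0.073) understates the change of so low a gene, and was -2.27 with a pseudocount of 0.1 (adjusted p = 0.10). It passed in limma without ICM 25 (-1.12, adjusted p = 0.047) and without ICM 22 (-1.56, adjusted p = 0.040). It did not pass with any other library left out (adjusted p = 0.169 to 0.325).

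SLC25A13, the second aspartate-glutamate carrier (citrin, the liver form in humans), was far more abundant. It had 13.9, 15.2 and 9.28 RPKM in ICM, against 18.7, 17.6 and 15.2 RPKM in TE, and the tissues overlapped by a narrow margin at ICM 22 and TE 24 (-0.42 as the log2 difference, SE 0.26, limma adjusted p = 0.46). SLC25A12 made up 1.9%, 8.3% and 2.9% of the RPKM of the pair in ICM 15, 22 and 25, against 12.1%, 14.7% and 15.2% in TE 16, 23 and 24. This share did not overlap between tissues (4.4% ± 3.4 in ICM and 14.0% ± 1.7 in TE, SD, n = 3 each). Its exact permutation p of 0.1 is the smallest that 3 against 3 libraries allow, and 0.5 after adjustment over the 10 families compared. SLC25A12 lies on chromosome 18 (50992086 to 51086811) and SLC25A13 on chromosome 4 (39418406 to 39584407) in the deposited coordinates.

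SLC25A1, the citrate carrier that exports citrate for lipid synthesis, had 19.1, 16.8 and 13.0 RPKM in ICM, against 24.3, 26.6 and 26.9 RPKM in TE. The tissues did not overlap, at a ratio of 0.63 and a log2 difference of -0.66 (SE 0.24, limma adjusted p = 0.21). The pyruvate carrier subunit MPC1 did not overlap either. It had 31.9, 38.4 and 26.1 RPKM in ICM, against 44.7, 39.5 and 55.3 RPKM in TE, with ICM 22 just below TE 23 (log2 difference -0.52, SE 0.25, adjusted p = 0.34). Its partner MPC2 had 18.8, 11.1 and 6.46 RPKM in ICM, against 9.63, 12.1 and 12.6 RPKM in TE, with ICM 15 the highest and ICM 25 the lowest of all 6. The carrier is formed from both subunits, and MPC1 made up 73.5% ± 9.3 of their RPKM in ICM and 80.1% ± 3.0 in TE (SD, n = 3 each, exact permutation test, two-sided, p = 0.3). ICM 15 was the low library, at 62.9%.

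The remaining carriers of this role were lower in level. SLC25A11, the oxoglutarate carrier and the other limb of the malate-aspartate shuttle, averaged 7.81 ± 1.18 RPKM in ICM and 8.06 ± 0.92 RPKM in TE (SD, n = 3 each), with a log2 difference of -0.04 (SE 0.24). The dicarboxylate carrier SLC25A10 averaged 2.51 ± 0.34 RPKM in ICM and 3.71 ± 1.09 RPKM in TE. SLC25A38, which brings glycine to haem synthesis, had 0.73, 3.38 and 0.78 RPKM in ICM, against 3.17, 1.60 and 2.84 RPKM in TE, and as for SLC25A12, ICM 22 was the only high ICM library. The glutamate carriers were near the filter. SLC25A18 had 1.19, 0.65 and 3.80 RPKM in ICM against 1.73, 1.35 and 1.40 RPKM in TE, with ICM 25 the highest of all 6 libraries. The ornithine carrier SLC25A2 and the oxoadipate carrier SLC25A21 averaged 1.09 ± 0.62 and 1.28 ± 0.86 RPKM in ICM, against 1.42 ± 0.34 and 2.09 ± 0.36 RPKM in TE (SD, n = 3 each). SLC25A22, not tested, had 0.70, 1.44 and 0.22 RPKM in ICM against 0.99, 0.90 and 1.31 RPKM in TE. Its row lies wholly within that of DUSP8, as does that of the branched-chain amino acid carrier SLC25A44 within HCN3, and strand is not stated. SLC25A44 had 4.05, 3.88 and 0.78 RPKM in ICM, against 2.93, 2.81 and 3.62 RPKM in TE, with ICM 15 and 22 above and ICM 25 below all TE libraries.

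Of the carriers of ADP, ATP and phosphate, 5 were tested and none was called, with 0 at an unadjusted p under 0.05. Of all genes, 1.87% were called and 16.9% had such a p, so 5 genes are too few to tell this role from the rest. SLC25A3, which imports phosphate for ATP synthesis, had 159, 231 and 150.3 RPKM in ICM, against 176, 198 and 307 RPKM in TE. ICM 22 lay within the range of TE (-0.32 as the log2 difference, SE 0.30, limma adjusted p = 0.65). SLC25A5, the ADP/ATP carrier typical of dividing cells, had 125, 206 and 71.1 RPKM in ICM, against 129, 130.5 and 151 RPKM in TE. ICM 22 and ICM 25 were the highest and the lowest of all 6, while the TE libraries were close together. SLC25A4, the ADP/ATP carrier of heart and muscle, had 16.8, 25.2 and 22.2 RPKM in ICM, against 23.8, 29.6 and 24.0 RPKM in TE.

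SLC25A5 was thus the main ADP/ATP carrier in every library, with SLC25A4 at 11.8%, 10.9% and 23.8% of the pair in ICM 15, 22 and 25 and 15.6%, 18.5% and 13.7% in TE 16, 23 and 24 (exact permutation test, two-sided, p = 1). SLC25A6 was not analysed here, so these are shares of the pair and not of all such carriers, and near-identical copies may share reads. SLC25A31, known in mice and humans as the ADP/ATP carrier of germ cells, stayed under the filter at 0.50 to 0.78 RPKM in ICM and 0.34 to 0.59 RPKM in TE, from 13 to 22 and 9 to 12 reads. The calcium-regulated ATP-Mg/phosphate carriers SLC25A24 and SLC25A25 averaged 5.40 ± 2.15 and 1.37 ± 0.47 RPKM in ICM, against 5.03 ± 0.52 and 0.75 ± 0.46 RPKM in TE (SD, n = 3 each).

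**Figure D3:**
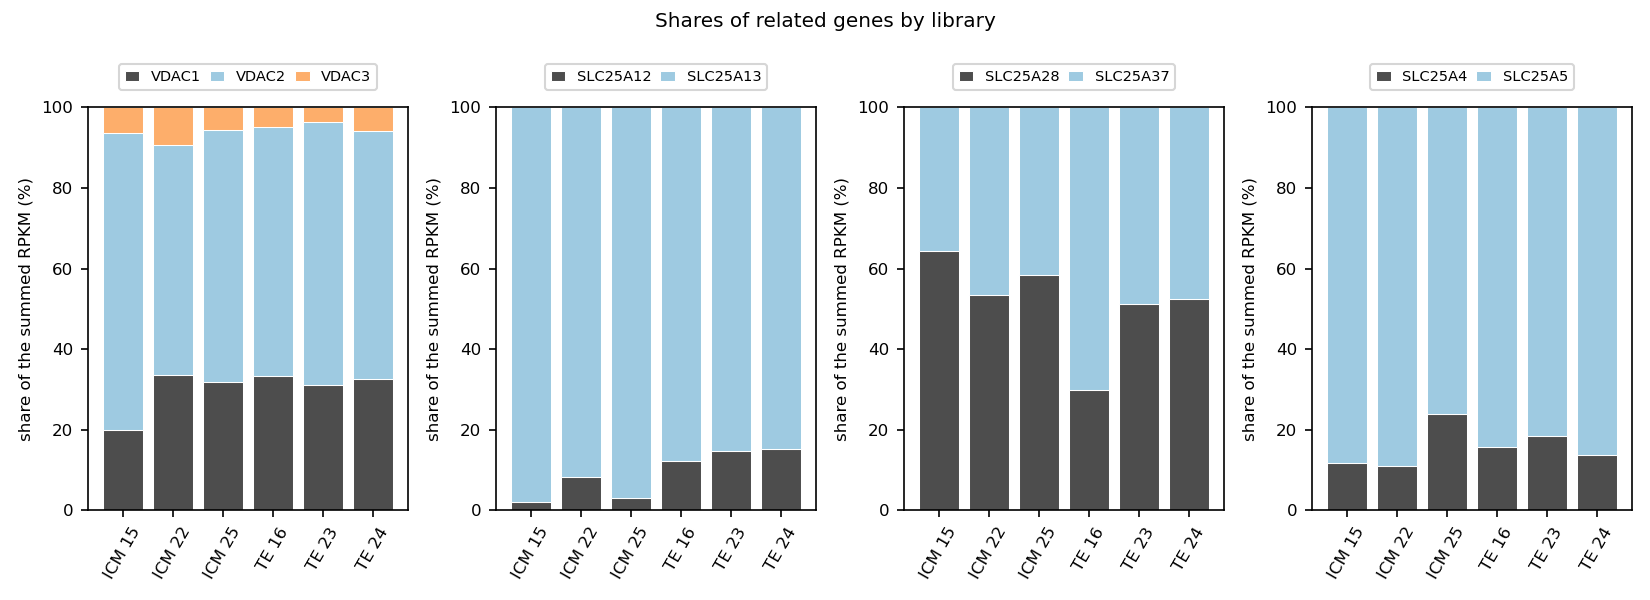
Share (%) of each gene in the summed RPKM of its family, in each of the 3 ICM and 3 TE libraries, for the VDAC channels, the aspartate-glutamate carriers, the mitoferrins and the ADP/ATP carriers. SLC25A12 takes 1.9% to 8.3% of its pair in ICM and 12.1% to 15.2% in TE, and VDAC1 takes 31.0% to 33.4% of the channels in all libraries but ICM 15, where it takes 19.8%.

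Among carriers of nucleotides, cofactors and metals, 9 of 11 had a log2 difference below 0, where 64.7% of all genes did, and SLC25A36 and SLC25A17 were above 0. ICM 25 was the lowest library for 9 of the 11. After median of ratios rescaling 7 of 11 were below 0, where 49.4% of all genes were. Without ICM 25 it was 8 of 11, where 50.8% of all genes were. SLC25A36 carries pyrimidine nucleotides for mitochondrial DNA and RNA. It had 55.8, 50.4 and 20.2 RPKM in ICM 15, 22 and 25, against 26.0, 23.7 and 25.7 RPKM in TE 16, 23 and 24. ICM 15 and 22 lay far above the narrow range of TE and ICM 25 below it. With all libraries the log2 difference was 0.60 (SE 0.37, limma adjusted p = 0.46), and without ICM 25 it was 1.05 (SE 0.16, adjusted p = 0.0089). The summed levels of both lists of ICM markers were also high in ICM 15 and 22 and low in ICM 25. POU5F1 made up most of the epiblast sum, at 93.1, 102 and 36.0 RPKM in ICM 15, 22 and 25. The pattern did not hold for KLF4 and GDF3 of the epiblast list. The 3 hypoblast markers summed to 56.4, 60.4 and 14.7 RPKM in ICM and 14.0 to 21.7 RPKM in TE, and the 5 epiblast markers to 122, 128 and 47.7 RPKM in ICM and 35.6 to 55.9 RPKM in TE. The part of these cell types in the level of SLC25A36 was not tested. In the authors' deposited table the fold of SLC25A36, ICM over TE, is 1.68 with an adjusted p of 0.022. Its relative SLC25A33, also a pyrimidine nucleotide carrier, had 8.13, 11.1 and 6.48 RPKM in ICM, against 9.01, 11.3 and 11.3 RPKM in TE, with a log2 difference of -0.29 (SE 0.26). SLC25A36 lies on chromosome 16 (75202791 to 75220512) in the deposited coordinates.

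Iron enters through the mitoferrins. SLC25A37, the form of developing red cells, had 4.02, 3.68 and 1.02 RPKM in ICM, against 6.28, 4.39 and 5.10 RPKM in TE, and the tissues did not overlap (-0.78 as the log2 difference, SE 0.37, limma adjusted p = 0.33; -0.36 without ICM 25). SLC25A28, the widely expressed form, had 7.27, 4.21 and 1.44 RPKM in ICM, against 2.68, 4.59 and 5.64 RPKM in TE. SLC25A28 made up 64.4%, 53.4% and 58.4% of the pair in ICM and 29.9%, 51.1% and 52.5% in TE. The shares did not overlap, but ICM 22 and TE 24 were separated by under 1 percentage point, and the exact permutation p was 0.1, the smallest possible, or 0.5 over the 10 families.

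Of the glutathione importers, SLC25A39 was the more abundant and averaged 29.8 ± 9.98 RPKM in ICM and 35.6 ± 2.24 RPKM in TE (SD, n = 3 each). SLC25A40 had 0.54, 1.10 and 0.81 RPKM in ICM, against 1.44, 1.88 and 2.10 RPKM in TE, without overlap (-0.63 as the log2 difference, SE 0.24, limma adjusted p = 0.23), from 17 to 42 reads in ICM and 46 to 68 in TE. The folate carrier SLC25A32 averaged 2.45 ± 0.85 RPKM in ICM and 4.06 ± 1.11 RPKM in TE. SLC25A26, which imports the methyl donor S-adenosylmethionine, averaged 4.98 ± 1.40 RPKM in ICM and 5.12 ± 1.13 RPKM in TE. SLC25A16, linked to coenzyme A, averaged 4.53 ± 1.16 RPKM in ICM and 5.97 ± 0.96 RPKM in TE. SLC25A17, a carrier of the peroxisome and not of the mitochondrion, had 7.89, 5.80 and 15.4 RPKM in ICM, against 6.70, 9.68 and 8.31 RPKM in TE, so that ICM 25 was the highest library.

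The other SLC25 genes had no shared direction. SLC25A43, an orphan carrier on chromosome X and 39074 bases from SLC25A5, had 0, 0 and 1 reads in ICM, against 6, 5 and 6 reads in TE, too few to pass the filter. SLC25A35, another orphan, had the largest SE of the 54 genes (0.59 around a log2 difference of -0.06), with 11.6, 18.8 and 2.51 RPKM in ICM against 11.3, 5.18 and 12.2 RPKM in TE. SLC25A46, an outer membrane protein of mitochondrial fusion, averaged 7.44 ± 2.79 RPKM in ICM and 6.84 ± 1.51 RPKM in TE (SD, n = 3 each). The uncoupling protein relatives SLC25A14 and SLC25A30 averaged 1.08 ± 0.42 and 4.87 ± 1.74 RPKM in ICM, against 1.24 ± 0.22 and 4.07 ± 0.54 RPKM in TE. SLC25A45 stayed under the filter at 0.36 to 0.76 RPKM in ICM and 0.34 to 0.96 RPKM in TE.

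With all 6 libraries, none of the import genes tested separated the tissues. Of the 19 TOMM and TIMM genes tested, 0 were called and 0 had an unadjusted p under 0.05. Of all genes, 1.87% were called and 16.9% had such a p. The tissues overlapped for all 19, where 17.8% of all genes had ICM below TE without overlap and 6.81% had ICM above TE. ICM 25 was the lowest of the 6 libraries for 16 of the 19, among them all 5 small chaperones, against 50.9% of all genes tested and 63.3% of the SLC25 genes. The median log2 level relative to the TE mean was 0.06 in ICM 15, 0.42 in ICM 22 and -1.06 in ICM 25 for the 19 genes, and -0.08, 0.05 and -0.43 for all genes. By gene length, ICM 25 was the lowest library for 51.0%, 49.9% and 51.8% of all genes of up to 1088, 1089 to 1983 and over 1983 bases. The median log2 level of these length groups relative to the TE mean, from short to long, was -0.47, -0.43 and -0.38 in ICM 25 and 0.14, 0.02 and 0.01 in ICM 22. The median length of the 19 genes was 738 bases, and the part of length in their levels was not tested.

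**Figure D4:**
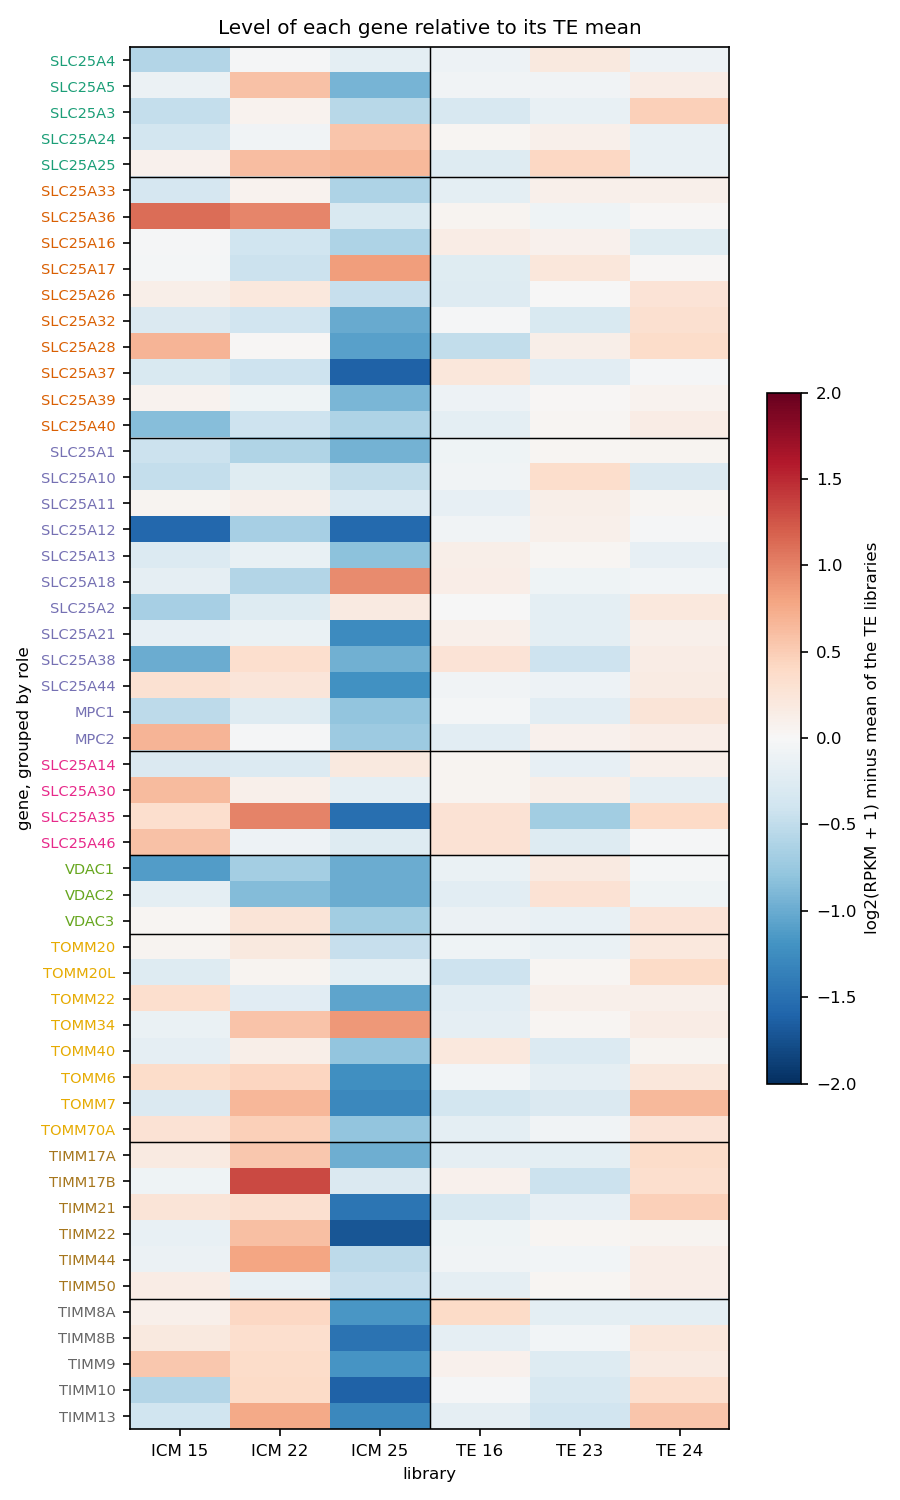
Level of the tested genes, except 1 that is not reported, in each library, as log2(RPKM + 1) minus the mean of the 3 TE libraries (colour scale from -2, blue, to 2, red), in rows grouped by role (colours of the names at left). The column of ICM 25 is blue for most TOMM and TIMM rows, where ICM 15 and ICM 22 are near 0 or red, and VDAC1 and SLC25A12 are blue in all 3 ICM libraries.

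At the outer membrane, TOMM20, the receptor that binds targeting sequences, had 118, 130.3 and 82.3 RPKM in ICM, against 108, 103 and 132 RPKM in TE (-0.07 as the log2 difference, SE 0.26, limma adjusted p = 0.93). TOMM22, the central receptor, had 104, 70.1 and 38.7 RPKM in ICM, against 70.7, 88.2 and 87.9 RPKM in TE. ICM 15 was the highest and ICM 25 the lowest for TOMM22, while TE was compact. TOMM40, the pore, was lower in RPKM than TOMM20 and TOMM22 in every library, at 14.8, 18.3 and 9.30 RPKM in ICM against 19.7, 13.8 and 17.4 RPKM in TE. The small subunits TOMM6 and TOMM7 averaged 52.6 ± 27.1 and 29.8 ± 19.6 RPKM in ICM, against 51.9 ± 7.91 and 33.6 ± 14.6 RPKM in TE (SD, n = 3 each). TOMM7 was high in 1 library of each tissue, at 51.1 RPKM in ICM 22 and 50.5 RPKM in TE 24, where the others held 12.5 to 25.9 RPKM.

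TOMM70A, the receptor for carrier precursors such as those of the SLC25 family, had 28.5, 32.7 and 12.9 RPKM in ICM, against 20.1, 22.0 and 28.3 RPKM in TE. TOMM34, a cytosolic partner, was highest in ICM 25, with 1.52, 3.10 and 4.01 RPKM in ICM against 1.42, 1.83 and 2.06 RPKM in TE (log2 difference 0.43, SE 0.30). The paralogs TOMM20L and TOMM40L took 2.1% ± 0.4 and 4.4% ± 3.8 of the RPKM of their pairs in ICM, and 2.3% ± 0.6 and 7.9% ± 3.1 in TE (SD, n = 3 each). TOMM40L, not tested, had 2, 38 and 28 reads in ICM against 49, 24 and 81 reads in TE. TOMM20L ends 196 bases from TIMM9 on chromosome 24.

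At the inner membrane, TIMM17A, a channel subunit of the TIM23 complex, had 38.6, 49.8 and 16.8 RPKM in ICM, against 30.1, 29.6 and 44.3 RPKM in TE. Its X-linked paralog TIMM17B had 5.81, 17.0 and 4.91 RPKM in ICM, against 6.68, 4.35 and 8.14 RPKM in TE, with ICM 22 the highest library for both and TIMM17B at 25.5% of the pair there. TIMM17A made up 79.6% ± 6.5 of the pair in ICM and 84.5% ± 2.7 in TE (SD, n = 3 each, exact permutation test, two-sided, p = 0.3). TIMM22, the channel that inserts carrier proteins, had 6.36, 11.5 and 1.50 RPKM in ICM, against 6.72, 7.41 and 7.47 RPKM in TE. ICM 22 and ICM 25 bracketed a narrow TE range, and the log2 difference of -0.42 (SE 0.51, limma adjusted p = 0.73) was 0.23 without ICM 25. Part of the TIMM22 row overlaps that of ABR, at 1.63 to 4.36 RPKM in ICM and 3.30 to 4.28 RPKM in TE.

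TIMM21, a TIM23 subunit, had 9.71, 10.2 and 2.26 RPKM in ICM, against 6.19, 7.01 and 11.4 RPKM in TE. TIMM44, which anchors the import motor, averaged 4.74 ± 2.80 RPKM in ICM and 4.14 ± 0.40 RPKM in TE (SD, n = 3 each). TIMM50, the TIM23 receptor, had 12.5, 10.01 and 7.82 RPKM in ICM against 9.78, 11.5 and 12.4 RPKM in TE. Its row lies within that of DLL3, at 0.37 to 0.67 RPKM in ICM and 0.99 to 1.41 RPKM in TE. TIMM23 was not analysed here.

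All 5 small chaperones were lowest in ICM 25, and 4 of them were highest in ICM 22. TIMM9 and TIMM10, partners in 1 hexamer, had 26.6, 23.6 and 7.42 RPKM and 8.59, 17.6 and 3.65 RPKM in ICM 15, 22 and 25. In TE 16, 23 and 24 they had 19.2, 15.0 and 20.5 RPKM and 13.1, 10.5 and 17.1 RPKM. TIMM8A, the gene of human deafness-dystonia syndrome and X-linked here too, had 28.9, 36.1 and 11.4 RPKM in ICM, against 35.2, 23.4 and 23.3 RPKM in TE. TIMM8B had 17.2, 19.0 and 4.74 RPKM in ICM, against 13.1, 14.3 and 17.7 RPKM in TE, and TIMM13, the partner of TIMM8A, had 3.51, 9.05 and 1.41 RPKM in ICM, against 4.25, 3.55 and 7.69 RPKM in TE. TIMM10, TIMM13 and TIMM8B are short rows of 318, 441 and 507 bases and had as few as 28, 15 and 58 reads in ICM 25.

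Without ICM 25, 16 of the 19 import genes had a log2 difference above 0 and their median was 0.23, where that of all genes was -0.01. None of the 19 was called by limma then either, and 1 had an unadjusted p under 0.05, where 11.5% of all genes were called and 27.8% had such a p. TOMM6, TOMM70A and TIMM9 were free of overlap with ICM above TE, and none with ICM below TE, where 21.6% and 22.8% of all genes were free of overlap in these directions. TIMM9 had a log2 difference of 0.45 (SE 0.19, limma adjusted p = 0.18) and TOMM6 of 0.40 (SE 0.18, adjusted p = 0.21). The 30 SLC25 genes tested had a median of -0.21 without ICM 25, with 20 of them below 0.

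Genes that work beside these were read from 3 lists. In the list of the import motor, processing, sorting and insertion, 0 of 24 genes were called, where 1.87% of all genes were. The median log2 difference of the list was -0.30. Without ICM 25 this median was 0.04. The medians of all genes were -0.15 with ICM 25 and -0.01 without it. CHCHD4, the receptor of disulfide-dependent import into the intermembrane space, had the smallest p, at 7.40, 9.96 and 3.01 RPKM in ICM against 14.4, 15.7 and 15.4 RPKM in TE (-1.17 as the log2 difference, SE 0.36, limma adjusted p = 0.15), without overlap. MTX2, an outer membrane sorting factor, had 22.2, 23.8 and 16.2 RPKM in ICM against 33.3, 36.1 and 33.5 RPKM in TE (adjusted p = 0.18). Without ICM 25, 1 gene of the list was called by limma with ICM higher (the motor partner DNAJC15, adjusted p = 0.025) and 1 with ICM lower (CHCHD4, adjusted p = 0.043), against 5.89% and 5.62% of all genes. The motor chaperone HSPA9 was also lowest in ICM 25, with 305, 338 and 168 RPKM in ICM against 270.3, 272 and 332 RPKM in TE.

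In the list of other mitochondrial membrane transporters, 0 of 21 genes tested were called (median -0.22, and 0.06 without ICM 25), where 1.87% of all genes were. Without ICM 25 there were 3 called, all lower in ICM, where 5.62% of all genes were called in that direction. ABCB10, an inner membrane transporter needed for haem synthesis, had 8.59, 12.1 and 6.23 RPKM in ICM against 17.8, 19.4 and 21.4 RPKM in TE (-1.08 as the log2 difference, SE 0.27, limma adjusted p = 0.091, and 0.032 without ICM 25). HK1, the hexokinase that docks on VDAC1, had 12.8, 14.5 and 16.1 RPKM in ICM against 22.2, 23.3 and 29.7 RPKM in TE (log2 difference -0.75, SE 0.24, adjusted p = 0.16, and 0.033 without ICM 25). Both were free of overlap, and for HK1 ICM 25 was the highest ICM library. HK2, the other hexokinase of the list, went the other way. It had 14.2, 17.7 and 10.3 RPKM in ICM against 8.92, 12.4 and 13.0 RPKM in TE, with overlap. Its log2 difference was 0.27 (SE 0.28, limma adjusted p = 0.68), and 0.46 without ICM 25 (adjusted p = 0.22). The third gene called without ICM 25 was MPV17, where ICM 25 lay within TE and the other ICM libraries below it. In the list of cristae and inner membrane organisation, 0 of 12 genes were called with or without ICM 25. With ICM 25, 0 had an unadjusted p under 0.05. Of all genes, 1.87% were called and 16.9% had such a p with ICM 25, and 11.5% were called without it. The median was -0.14 with ICM 25 and -0.04 without it. CHCHD3 and STOML2 had the smallest p there, both with ICM lower (log2 difference -0.61 and -0.57, limma adjusted p = 0.31 and 0.33). The tissues overlapped for CHCHD3 and did not for STOML2.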

How the data were processed

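RNA of 3 ICM and 3 TE libraries was isolated (Picopure), amplified (Nugen Ovation) and made into TruSeq DNA libraries, per the labels' protocols. The authors deposited 1 table whose header gives RPKM per library and, made with DESeq, a mean signal (baseMean, normalized counts), a fold as a ratio of ICM over TE, its log2 value, and a p-value and adjusted p-value. The authors used FastQC and DESeq, per the submitters' processing notes. The aligner, counter, strand and genome build were not given in the sources used here. Each row has at least 0.40 RPKM in 2 libraries.

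RPKM and baseMean gave back whole reads, within 0.001 reads for 100% of values up to 1000 reads, and whole lengths within 0.01 bases for 100% of rows. Log2(RPKM + 1) of genes with 1 RPKM in 3 libraries was modelled in R 4.3.3 with limma 3.58.1 (eBayes with trend, two-sided, Benjamini-Hochberg at 0.05), and checked on simulated data. Paralog shares were compared by exact permutation over libraries. The read depth of a gene limits its precision: 27 of the 59 genes had at least 100 reads in every library and 23 had under 50 in some. Reads are amplified without molecular identifiers.

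The genes and lists were chosen with earlier results of these data known. Values are given for genes without overlap between tissues (up to 8 per direction), the 8 most abundant, paralog families and genes fixed by role, and of the related lists the 2 smallest p. MPV17, DNAJC15, HSPA9, HK2 and the carriers outside these were added after their values were seen. The values of 1 gene are not reported here. Symbols of 57 of the 59 genes occur in the RefSeq gene table of assembly TB-T2T.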

Additional observations from a re-analysis of the deposited data

How the results depend on the processing

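No paired analysis was possible because the ICM and TE libraries share no replicate number. Over all genes, 176 calls became 112 with a pseudocount of 0.1 RPKM, 114 when low rows were kept, 81 with the floor raised to 5 RPKM, 760 with library weights, and 0 to 1086 with 1 library left out (0 without TE 16, where 983 genes had an unadjusted p under 0.05, 1 without TE 23 or TE 24, 18 without ICM 15, 76 without ICM 22, 1086 without ICM 25). The even split of 88 higher in ICM and 88 higher in TE was 128 and 64 with median of ratios rescaling, 129 and 77 with quantile normalization, and 29 and 52 with the floor of 5 RPKM. Among the 59 genes, the 0 calls in each direction became 1 higher in ICM (SLC25A36) and 2 higher in TE (VDAC1 and SLC25A12) with library weights, which gave ICM 25 a weight of 0.17 against 0.66 to 2.81 for the others. With 1 library left out they ranged from 0 to 1 higher in ICM and 0 to 2 higher in TE, SLC25A12 alone without ICM 22. None of the 54 genes was called with voom on the recovered reads, with 5 at an unadjusted p under 0.05, where 63 of all genes were called higher in ICM (0.668%), 62 higher in TE (0.657%) and 16.4% had such a p. None of the 19 TOMM and TIMM genes was called in any alternative run. The median log2 difference of the 54 genes ranged from -0.43 (without ICM 22) to 0.032 (without ICM 25), and stayed below 0 in the other alternatives. The cause of these changes was not tested. VDAC1, SLC25A12 and SLC25A36 kept their direction in all alternatives run for them. Low genes, such as SLC25A43 and SLC25A31, are limited by their read numbers.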
